A study of Arabidopsis thaliana with 12 samples.

Results

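The effect of being a scion was compared between 2 organs of homografted Arabidopsis thaliana plants, as the difference between scion and rootstock in flower buds minus the same difference in leaves. All 12 ATH1 arrays of the series entered this comparison, 3 for each combination of graft part (scion or rootstock) and organ (flower buds or leaves), and 22746 probe sets were tested. Every sample came from ecotype Columbia (Col-0) grown in long days, in which the top of a young inflorescence stem had been cut off and wedge-grafted back onto the stem of the same plant, and the buds were unopened. Buds and leaves had newly emerged on side branches above the graft (scion) or below it (rootstock), so that being a scion, growing higher on the plant and having been cut off cannot be told apart. There was no ungrafted plant in the comparison, plants with the best scion growth had been chosen for harvest, and the number of plants behind each array is not given in the sources used here.

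A graft joins the vascular tissue of both partners, and water, sugars, hormones and RNAs then pass between them. An unopened flower bud holds floral organs under construction, in which MADS box factors such as the SEPALLATA (SEP) proteins set the identity of the whorls, and anthers whose inner layer, the tapetum, builds the pollen wall and later releases the pollen coat. A leaf is built without these programmes and expresses many genes of photosynthesis and of defence. In bulk organs like these, fewer cells of a type and less RNA per cell cannot be told apart.

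The deposited values are log2 values centred to a median of 0 over the 12 arrays for each probe set, so that they show how arrays differ for a gene and hold no expression level of that gene. Some arrays stood high for transcripts of the other organ. Among the 50 probe sets with the largest excess of rootstock leaves over rootstock buds, scion flower bud replicate 1 stood 2.1 log2 units above the mean of the rootstock buds (median), against 0.20 and 0.28 in replicates 2 and 3. Among the 50 with the largest excess of rootstock buds over rootstock leaves, scion leaf replicates 1 and 3 stood 1.35 and 1.73 above the mean of the rootstock leaves, against 0.09 in replicate 2, while the rootstock leaf arrays lay between -0.06 and 0.08. The flower bud marker list (12 probe sets of floral and tapetum genes, 11 of them named only by the study's tables) had medians of -2.49, -4.32 and -1.43 in scion leaves 1 to 3 and of -4.64, -4.50 and -4.40 in rootstock leaves. The floral gene AP1 read 2.67 or more in every bud array and -3.97 or less in every rootstock leaf array, so that this marker separated the labelled organs. On the second principal component (11.4% of the variance), leaf replicate 3 of the scion and of the rootstock lay together at -70.06 and -70.56. Scion leaf 2 lay at the other end at 54.14, and the remaining leaf arrays lay between -4.96 and 25.67. Results that rest on arrays high for transcripts of the other organ (scion bud 1, scion leaves 1 and 3) are given below with and without them. Without these 3 arrays, scion leaf 2 is the lone scion leaf. Its deviations from its group mean correlated at 0.714 with those of rootstock leaf 2 and at -0.788 with those of rootstock leaf 3. The part of this in the values without the 3 arrays was not tested. The platform annotation leaves many probe sets unnamed, and 473 were named only because the study's tables list them. Those tables hold probe sets that the study called changed between scion and rootstock on these same arrays, and 387 of the 473 (81.8%) differed at least 2-fold in buds or leaves here, against 5.22% of all probe sets. Counts and medians of a gene list with such members therefore describe genes partly chosen for having changed, and the members that the platform annotation names are given beside them.

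No probe set passed the test of the difference between the organs (0% of 22746 at a limma adjusted p of at most 0.05), while the unadjusted p was 0.05 or lower for 1760 (7.74%). Of these, 890 (3.91%) were higher in scion buds relative to scion leaves and 870 (3.82%) were lower. The smallest adjusted p was 0.0812 and was shared by 16 probe sets, 8 in each direction. With array weights, which give less weight to arrays that scatter more, 467 probe sets passed, 236 and 231 in the 2 directions. By the sizes given below 7 were opposite, 126 bud-limited and 38 leaf-limited, and 296 were in none of these classes. Scion leaf 1, which stood high for bud transcripts, had a weight of 3, against 0.344 and 0.286 for scion leaves 2 and 3. With the replicate number as a block within each organ, 111 passed, and calls within the organs numbered 466 in buds and 108 in leaves, where scion and rootstock arrays of the same number deviated together. Within the organs, 54 probe sets rose (0.237%) and 36 fell (0.158%) in scion flower buds by at least 2-fold without the block, and 6 rose and 6 fell (0.0264% each) in scion leaves. Bud calls numbered 0 without rootstock bud replicate 1, 4 without rootstock bud 2, 18 without scion bud 1, 24 without scion leaf 1, 45 and 47 without rootstock leaf 1 and 2, 51 without scion bud 3 and 286 without scion bud 2. Leaf calls numbered 55 without scion leaf 2, 19 without scion leaf 3, and 7 without scion bud 3 or without any 1 of the rootstock buds, so single calls depend on which arrays are used. Of the 54 increases and 36 decreases in buds, 38 and 32 had a leaf difference under 0.5 log2 units in size, which 90.0% of all probe sets had, so these shares were no higher than the background. Of the 6 increases and 6 decreases in leaves, 4 and 6 had such a small difference in buds, against 87.1% of all probe sets.

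Fixed sizes of the fitted differences then sorted the probe sets, as a description with no test. A change counted as opposite when it was at least 2-fold in both organs with opposite signs, and 9 probe sets (0.0396%) did so, 4 of them higher in scion buds (0.0176%) and 5 higher in scion leaves (0.022%), against 109 (0.479%) that were at least 2-fold in the same direction. Bud-limited probe sets differed at least 2-fold in buds with no overlap of the scion and rootstock arrays and by less than 0.5 log2 units in leaves, and numbered 439 (1.93%), with 320 higher (1.41%) and 119 lower (0.523%) in the scion. Leaf-limited probe sets followed the mirrored rule and numbered 95 (0.418%), with 36 higher (0.158%) and 59 lower (0.259%). The unadjusted p of the organ difference was at most 0.05 in 169 of the 320 and 98 of the 119 bud-limited probe sets. Among the leaf-limited ones it was so in 26 of the 36 and 48 of the 59, against 7.74% of all probe sets. The sizes that sort the classes enter this p, so these shares are no test. A call within buds was reached by 38 and 32, and one within leaves by 4 and 6. Scion and rootstock arrays did not overlap for 25.2% of all probe sets in buds and for 8.91% in leaves. The count of leaf-limited probe sets reached 348 without rootstock leaf replicate 3, 280 without scion leaf 2, 275 without scion leaf 3 and 149 without rootstock leaf 1. Bud-limited ones numbered 281 without scion bud 1 and 734 without scion bud 2. Opposite ones numbered 44 without scion leaf 2, 42 without rootstock leaf 3, 17 without scion leaf 1 or without scion bud 3, 15 without scion bud 2 and 5 without scion bud 1.

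**Figure D1:**
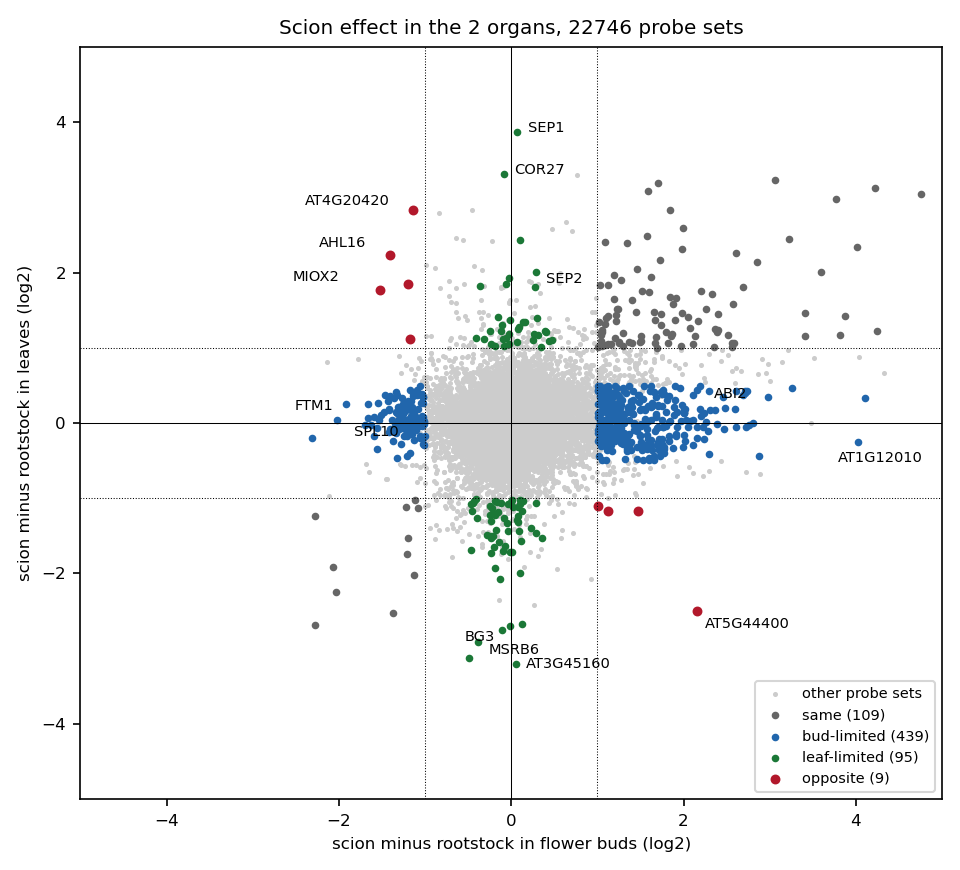
Difference between scion and rootstock in flower buds (x axis, log2) and in leaves (y axis, log2) for 22746 probe sets, each point 1 probe set and each value the difference of 2 means of 3 arrays, with dotted lines at a 2-fold difference and counts of each class in the legend. The 9 opposite probe sets lie in the upper left and lower right corners, and the 439 bud-limited ones spread along the horizontal axis.

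In most organ-limited probe sets it was the rootstock arrays of the responding organ that stood apart from all 9 other arrays. Among the 320 bud-limited probe sets that were higher in the scion, the 3 rootstock bud arrays were below all others in 226 (70.6%) and the 3 scion bud arrays above all others in 64 (20.0%). Among the 119 that were lower in the scion, rootstock buds were above all others in 103 (86.6%) and scion buds below all others in 8 (6.72%). The leaves showed the same order, with rootstock leaves below all others in 25 of 36 (69.4%) leaf-limited probe sets higher in the scion and above all others in 54 of 59 (91.5%) lower in the scion. Scion leaves were above all others in 10 (27.8%) of the former and below all others in 5 (8.47%) of the latter. Over all probe sets the rootstock buds were below the other arrays in 5.85% and above them in 7.19%, and the rootstock leaves in 1.88% and 2.31%. The scion buds were below the other arrays in 2.14% and above them in 1.91%, and the scion leaves in 1.35% and 0.787%. Rootstock groups thus stood apart more often than scion groups over all probe sets too. The rule of each class used the bud or leaf contrast, so these shares describe the members and are no test.

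Of the 9 probe sets with opposite changes, MIOX2 (at2g19800), a myo-inositol oxygenase that opens the inositol ring on the way to uronic acids, had the smallest p for the difference between the organs. Its centred values were 0.08, 0.06 and -0.06 in scion buds against 1.61, 1.61 and 1.43 in rootstock buds. In leaves they were -0.06, -0.70 and 0.52 in the scion against -1.64, -2.27 and -1.65 in the rootstock. All scion buds thus lay below all rootstock buds and all scion leaves above all rootstock leaves, so that buds and leaves of the scion, which overlapped, were closer to each other than buds and leaves of the rootstock. On the log2 scale MIOX2 fell in scion buds by 1.53 ± 0.27 (SE, limma adjusted p = 0.0481), and the leaf difference was 1.77 ± 0.27 (SE, adjusted p = 0.0581). The difference between the organs was -3.30 ± 0.39 (SE, adjusted p = 0.0812), and it ran from -3.61 to -3.00 when each array was left out in turn.
MIOX4 (at4g26260), the other inositol oxygenase with a named probe set, was lower in scion buds at 0.05, -0.05 and 0.27 against 2.51, 2.54 and 1.65 in the rootstock, a difference of -2.14 (adjusted p = 0.0928). Its scion leaves (-1.31, 0.16 and -2.16) overlapped the rootstock leaves (-2.12, -1.74 and -1.89), and the leaf difference was 0.81 with a 95% interval from -0.24 to 1.86. Both probe sets were named only by the study's tables of changed genes.

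The mirror image of MIOX2 was at5g44400, which encodes a FAD-binding oxidase of the berberine bridge enzyme family. It read 0.57, -0.17 and 1.09 in scion buds against -1.68, -2.20 and -1.10 in rootstock buds, and -0.58, 0.17 and -1.17 in scion leaves against 2.85, 1.74 and 1.32 in rootstock leaves. There was no overlap in either organ, and here too the scion organs overlapped each other while rootstock leaves lay above rootstock buds. The difference was 2.16 in buds (adjusted p = 0.0955) and -2.50 in leaves (adjusted p = 0.131), neither past the test, and 4.65 ± 0.68 (SE, adjusted p = 0.0812) between the organs. MIOX2 and at5g44400 were the only opposite probe sets without overlap in both organs. Of all 22746 probe sets, 174 (0.765%) had no overlap in either organ and opposite directions of any size, and 393 (1.73%) had no overlap and the same direction.

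The opposite probe sets AHL16 (at2g42940), at3g52130, at3g07450 and at4g20420, were lower in scion buds and higher in scion leaves, and all were far higher in buds than in leaves. AHL16 encodes an AT-hook nuclear protein of the tapetum, and at3g52130 and at3g07450 encode lipid transfer proteins. AHL16 read 0.28, 1.09 and 1.04 in scion buds against 2.28, 2.3 and 2.05 in rootstock buds, and -1.15, -3.90 and -0.28 in scion leaves against -4.35, -4.0 and -3.69 in rootstock leaves. Scion leaf replicate 2 lay at the rootstock leaf level, and replicates 1 and 3, which stood high for bud transcripts as a whole, lay far above it. These 4 genes are themselves among the 50 probe sets that marked replicates 1 and 3 as high. This pattern, and the smaller leaf differences without those arrays, are therefore partly built in. The part of bud transcripts in the leaf differences was not tested. Replicate 2 lay below the rootstock leaves in at4g20420, at -1.35, -6.41 and -0.46 in scion leaves against -5.80, -5.44 and -5.51, while in at3g52130 and at3g07450 it read -5.09 and -4.94 against rootstock leaf means of -4.97 and -4.22. The leaf difference of AHL16 was 2.23 (95% interval 0.66 to 3.81) with all arrays and 0.11 without scion bud 1 and scion leaves 1 and 3. For at3g52130, at3g07450 and at4g20420 it was 1.85, 1.12 and 2.84 with all arrays and -0.12, -0.72 and -0.83 without them, with a lone scion leaf array that is then assumed to vary like the other groups. In buds the difference of these 4 genes lay between -1.41 and -1.14 with all arrays and between -1.15 and -0.92 without the 3, and the rootstock buds were above all other arrays in each.

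Higher in scion buds and lower in scion leaves were also at3g46770, which encodes a B3 domain protein, IGMT4 (at1g21130), a methyltransferase of indole glucosinolates, and HIR2 (at3g01290), a membrane protein of the hypersensitive response. At3g46770 read 1.2, 1.05 and 1.58 in scion buds against 0.40, 0.09 and -0.05 in rootstock buds with no overlap, and -2.34, -1.74 and -2.59 in scion leaves against 0.05, -1.32 and -1.91 in rootstock leaves, where the groups overlapped. In IGMT4 scion bud 2, at -2.65, lay among the rootstock buds (-2.64, -2.51 and -3.36), and replicates 1 and 3 lay at -0.20 and -1.27. HIR2 was high in scion bud 1 at 0.13, against -3.46 and -2.84 in replicates 2 and 3, and low in scion leaf 3 at -0.13, against 4.0 and 4.36 in replicates 1 and 2. Its organ difference of 2.1 (adjusted p = 0.851) turned to -0.61 without the 3 arrays that stood high for transcripts of the other organ. Without these arrays 20 probe sets were opposite, and MIOX2 (-1.55 in buds and 1.15 in leaves) and at5g44400 (2.12 and -1.80) were the only ones shared with the 9. The probe set nearest below the 2-fold limit was psbC, a plastid gene of photosystem II, with 1.12 in buds and -0.996 in leaves. JP630 (-0.990 and 1.16) and the exine gene LAP5 (-0.986 and 2.1) came next, and HIR2, at 1.00 in buds, was nearest above it.

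**Figure D2:**
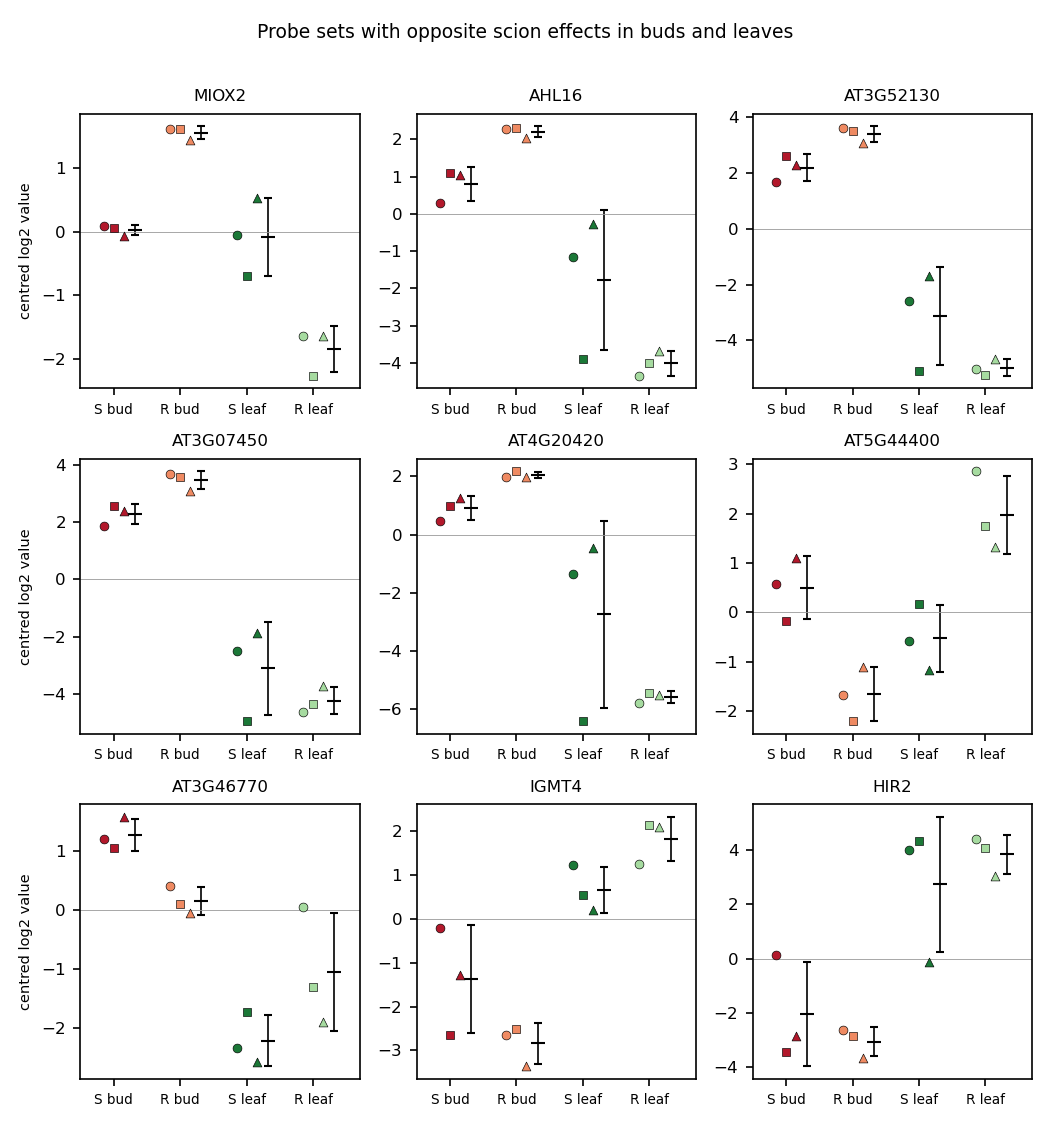
Centred log2 values (y axis) of the 9 opposite probe sets on the 12 arrays, grouped as scion (S) and rootstock (R) flower buds and leaves, with replicate 1 as a circle, 2 as a square and 3 as a triangle, and the mean ± SD of the 3 arrays beside them. Scion and rootstock do not overlap in either organ in MIOX2 and AT5G44400, and scion leaf replicate 2 sits at or below the rootstock level in AHL16, AT3G52130, AT3G07450 and AT4G20420.

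Leaf-limited probe sets that were higher in the scion were led by floral MADS box genes. SEP1 (at5g15800) read -0.58, -1.46 and -0.17 in scion leaves against -4.13, -5.30 and -4.37 in rootstock leaves, and 0.56, 0.40 and 0.39 in scion buds against 0.17, 0.44 and 0.53 in rootstock buds. The scion leaves lay far above the rootstock leaves and below all buds, while the bud groups overlapped. On the log2 scale SEP1 rose by 3.87 ± 0.34 in scion leaves (SE, adjusted p = 0.00485), with a bud difference of 0.07 (95% interval -0.69 to 0.83) and an organ difference of -3.79 ± 0.49 (SE, adjusted p = 0.0812).
SEP2 (at3g02310) read -2.99, -2.69 and -2.31 in scion leaves against -4.58, -4.53 and -4.32, and rose by 1.81 (adjusted p = 0.00524). AP1 (at1g69120), which sets the identity of the floral meristem and of sepals and petals, read -2.67, -3.25 and -2.74 against -3.97, -4.16 and -4.19, and rose by 1.22 (adjusted p = 0.0441). In these 3 genes scion leaf replicate 2 also lay above all rootstock leaves. The flower bud marker list, which includes these 3 genes, had a median of -4.32 in scion leaf 2, close to the highest rootstock leaf median of -4.40. SEP3 (at1g24260) was high only in scion leaves 1 and 3 (-2.55, -4.34 and -1.53 against -4.71, -4.87 and -4.27), with a difference of 1.81 that did not pass the test (adjusted p = 0.391). SEP4 (at2g03710) was 1.29, 1.29 and 1.12 in scion leaves against 0.02, 0.40 and -0.02, a difference of 1.1 that did not pass either (adjusted p = 0.248).

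With scion bud 1 and scion leaves 1 and 3 left out, the leaf difference was 3.14 for SEP1, 1.79 for SEP2 and 1.16 for SEP4, and AP1 dropped below 2-fold at 0.86. Over the alternative settings the organ difference ran from -4.16 to -3.13 for SEP1 and from -1.70 to -0.59 for SEP2. It ran from -1.06 to -0.37 for SEP4 and from -1.66 to -0.72 for AP1. Of 19 floral organ identity genes listed, 7 had a probe set with a name (5 only from the study's tables, among them the 3 that rose). All 7 were higher in scion leaves and 3 rose, against 47.8% and 0.0264% of all probe sets, with a median of 1.22. In scion buds 3 were higher, against 44.0% of all probe sets, with none past the test and a median of -0.12. The 2 named by the platform annotation had a median of 0.25 in leaves. Over all probe sets the medians were -0.01 in leaves and -0.04 in buds. Scion leaves 1 and 3, which stood high for bud transcripts, were above scion leaf 2 in SEP1, SEP3 and AP1, whereas in SEP2 replicate 1 was the lowest and in SEP4 replicate 3. SEP2, SEP3 and AP1 are among the 50 probe sets that marked scion leaves 1 and 3 as high for bud transcripts. The part of those transcripts in the values was not tested.

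Other leaf-limited genes that were higher in the scion belonged to varied families. IGMT5 (at1g76790), a methyltransferase of indole glucosinolates like IGMT4, read -0.12, 0.26 and -0.36 in scion leaves against -2.64, -1.63 and -3.26 in rootstock leaves, and its scion leaves overlapped both bud groups. The difference was 2.43 (adjusted p = 0.052) in leaves and 0.10 (95% interval -0.71 to 0.91) in buds. The major latex protein gene at4g23680 differed by 1.85 (adjusted p = 0.052) in leaves, where the scion arrays (-2.62, -2.20 and -2.88) stayed well above the rootstock arrays (-4.06, -4.51 and -4.67). The chromatin protein gene HMGA (at1g14900), at4g18340 and the helix-loop-helix factor BHLH32 (at3g25710) differed by 1.82, 1.37 and 1.12 in leaves, without passing the test. Of the 36 probe sets, 18 (50%) had every bud array above every leaf array, against 18.2% of all probe sets.

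Most genes of the circadian clock and its outputs that had a named probe set were also higher in scion leaves, none past the test. Such genes cycle over the day in leaves. COR27 (at5g42900), a cold-induced clock regulator, read -0.71, -3.28 and 0.10 in scion leaves against -4.64, -4.52 and -4.66 in rootstock leaves, and -0.06, 0.06 and 1.05 in scion buds against 0.35, 0.29 and 0.66. All scion leaves were above all rootstock leaves, with replicate 2 nearest to them, and the bud groups overlapped. The leaf difference of COR27 was 3.31 ± 0.68 (SE, adjusted p = 0.151) and that in buds -0.08, and without scion bud 1 and scion leaves 1 and 3 the leaf difference was 1.32.
JMJ30 (at3g20810), a histone demethylase of the evening loop, read -1.30, -2.97 and -0.18 against -4.44, -4.30 and -3.72, and the pseudo-response regulator gene PRR3 (at5g60100) read -0.03, -0.68 and 0.87 against -2.26, -1.46 and -2.10. Their leaf differences were 2.67 (adjusted p = 0.154) and 1.99 (adjusted p = 0.0969), beside 0.63 and 0.57 in buds. The organ differences of JMJ30 and PRR3 were -2.04 (adjusted p = 0.53) and -1.42 (adjusted p = 0.484). RVE7 (at1g18330), a MYB-like factor of the clock, was highest in scion leaf 2, at 0.96, 1.59 and 0.90 against -0.87, -0.06 and 0.19.

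Of 37 clock genes listed, 10 had a probe set with a name (6 only from the study's tables of changed genes). Among these, 9 were higher in scion leaves, against 47.8% of all probe sets, with none past the test and a median of 1.48. The organ difference had a median of -1.19. Its unadjusted p was at most 0.05 in 3 of 10, namely COR27, PRR3 and JMJ30, against 7.74% of all probe sets. The 4 named by the platform annotation were all higher in scion leaves, with a median of 1.25, and 1 of them had such a p. The list medians were -0.06, -0.54 and 0.15 in scion leaves against -1.52, -1.15 and -1.16 in rootstock leaves, with no overlap. In buds they were 0.42, -0.06 and 0.59 against 0.12, -0.05 and 0.21, and the groups overlapped. The time of day of harvest is not given in the sources used here beyond scion and rootstock having been harvested side by side. The median organ difference moved to -0.37 without the 3 arrays, where ELF4 (at2g40080), a component of the evening complex, turned from -1.28 to 0.41.

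Among the 59 leaf-limited probe sets that were lower in the scion, BG3 (at3g57240), a β-glucanase of the pathogenesis-related group, had the smallest p. It read 0.43, 0.57 and 0.14 in scion leaves against 3.68, 3.26 and 2.47 in rootstock leaves, and between -0.30 and -0.14 in all 6 bud arrays. Rootstock leaves alone stood high. In scion leaves BG3 fell by 2.76 ± 0.25 (SE, adjusted p = 0.00485), with a bud difference of -0.10 (95% interval -0.66 to 0.45) and an organ difference of 2.65 ± 0.35 (SE, adjusted p = 0.0812).
At3g45160 read -0.22, -0.36 and 0.29 in scion leaves against 2.28, 3.12 and 3.90, and fell by 3.20 (adjusted p = 0.00524). Its 9 other arrays lay between -0.36 and 0.29, with the rootstock leaves again alone. The SD of at3g45160 was 0.08 and 0.05 in scion and rootstock buds against 0.34 and 0.81 in scion and rootstock leaves. For BG3 these values were 0.05 and 0.03 against 0.22 and 0.61. The fit gives each probe set 1 spread for both organs, so the even bud arrays lower the SE of both leaf differences. MSRB6 (at4g04840), a methionine sulfoxide reductase that repairs oxidised proteins, read 1.19, 0.72 and 2.06 against 4.19, 4.41 and 4.09, and fell by 2.91 (adjusted p = 0.00524). In this gene the scion leaves stayed above all bud arrays, which lay between -1.61 and -0.72.

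Further decreases in scion leaves were those of at1g67330, which read 0.07, 0.20 and 0.32 against 1.87, 1.80 and 1.64 and fell by 1.58 (adjusted p = 0.00524), and of HMA2 (at4g30110), which encodes a zinc-exporting ATPase of the plasma membrane. HMA2 read -1.16, -1.26 and -1.02 in scion leaves against 0.30, 0.63 and -0.08, and fell by 1.43 (adjusted p = 0.0441), with a bud difference of -0.04 (95% interval -0.46 to 0.39). Here the scion leaves were below all other arrays. IAA19 (at3g15540), an auxin-induced repressor of auxin responses, PME61 (at3g59010), a pectin methylesterase of the cell wall, and GAMT2 (at5g56300), which methylates and inactivates gibberellins, differed by -1.06, -1.40 and -1.46 in leaves without passing the test (adjusted p = 0.0623, 0.052 and 0.0716). In each of these 3 genes all scion leaves lay below all rootstock leaves and the bud groups overlapped. Every leaf array was above every bud array in 33 of the 59 probe sets (55.9%), against 12.7% of all probe sets. With the 3 arrays left out, BG3, at3g45160, MSRB6, at1g67330, HMA2, PME61 and GAMT2 kept their class, and IAA19 dropped below 2-fold at -0.82. Over the alternative settings the organ difference ran from 2.38 to 2.99 for BG3, from 1.25 to 3.03 for MSRB6 and from 1.05 to 2.02 for PME61.

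**Figure D3:**
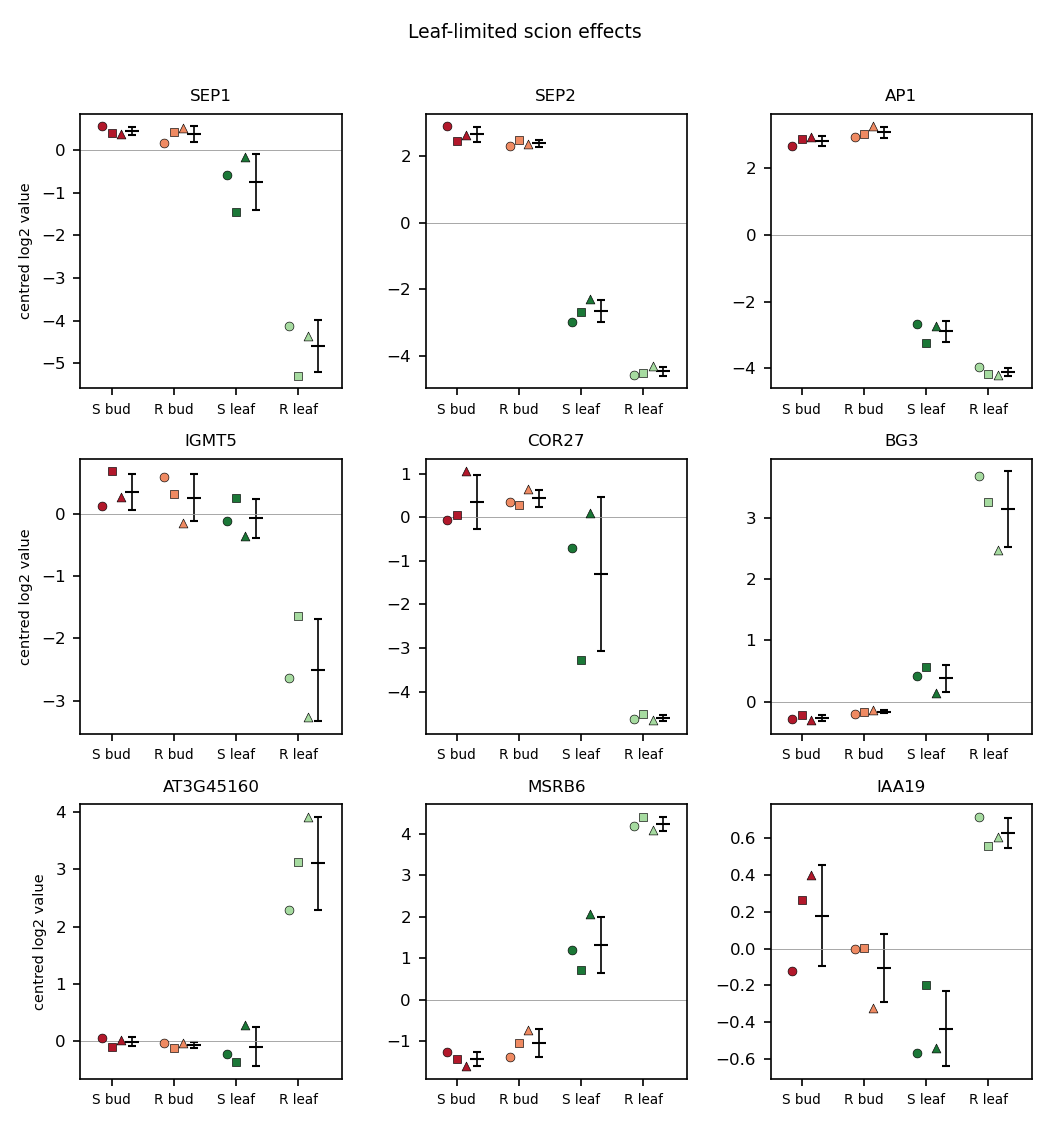
Centred log2 values (y axis) of 9 leaf-limited genes on the 12 arrays, grouped as scion (S) and rootstock (R) flower buds and leaves, with replicate 1 as a circle, 2 as a square and 3 as a triangle, and the mean ± SD of the 3 arrays. Rootstock leaves stand apart from the other groups in SEP1, IGMT5, BG3 and AT3G45160, and scion leaf replicate 2 is the lowest scion leaf in COR27.

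Defence genes of the salicylic acid branch were high in leaves and varied between leaf arrays. Of 34 genes listed, 12 had a probe set with a name (8 only from the study's tables of changed genes). Among these, 10 were lower in scion leaves and 8 in scion buds, against 11874 and 12741 of all 22746 probe sets. The list medians of the differences were -1.06 and -0.18, with no decrease past the test in either organ. The 4 named by the platform annotation were all lower in scion leaves, with a median of -0.49. The list medians in leaves were 2.54, 3.04 and -0.06 in the scion against 3.77, 3.52 and 1.61 in the rootstock, so that the replicate 3 arrays of both were low and the groups overlapped. The median organ difference of 0.45 turned to -0.37 without scion leaf 3 and to -0.84 without the 3 arrays, where scion leaf 2 is the lone scion leaf. UGT74F2 (at2g43820), which glucosylates salicylic acid, was the member that rose in scion buds, at 0.10, -1.68 and -2.03 against -4.11, -3.94 and -4.16 (difference 2.87, adjusted p = 0.0481), and its leaf difference was 0.65 (95% interval -0.47 to 1.77).
In the jasmonate and ethylene branch, ORA59 (at1g06160), a factor that joins both signals, read 0.87, 2.04 and -0.06 in scion leaves against 3.1, 3.85 and 1.66 in rootstock leaves, a difference of -1.92 (adjusted p = 0.437) beside 0.15 in buds. Of 24 genes listed for this branch, 10 had a probe set with a name (6 only from the study's tables). Among these, 7 were lower in scion leaves and 8 higher in scion buds, against 11874 and 10005 of all 22746 probe sets. No member passed the test in either organ. The 4 named by the platform annotation had medians of -0.99 in leaves and 0.01 in buds.

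Bud-limited probe sets that were higher in the scion included at1g12010, which encodes an oxidase of the last step of ethylene synthesis. It read 4.68, 3.1 and 3.13 in scion buds against -0.24, -0.17 and -0.78 in rootstock buds, and -0.53, -0.83 and 0.26 in scion leaves against -0.85, 0.33 and 0.17 in rootstock leaves. Scion buds alone stood high, and the other 9 arrays lay between -0.85 and 0.33. In scion buds it rose by 4.03 ± 0.47 log2 units (SE, adjusted p = 0.00987), with a leaf difference of -0.25 (95% interval -1.28 to 0.79) and an organ difference of 4.28 ± 0.66 (SE, adjusted p = 0.0812). It was 3.51 in buds and -0.71 in leaves without the 3 arrays.
CES (at1g25330), a helix-loop-helix activator of brassinosteroid synthesis, followed the same pattern at 2.96, 1.62 and 2.35 in scion buds, with all other arrays at 0.39 or below. It rose by 2.11 (adjusted p = 0.0165), with a leaf difference of -0.30 (95% interval -0.91 to 0.32).

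ENODL6 (at1g48940), an early nodulin-like protein of the cell surface, rose in scion buds by 1.87 (adjusted p = 0.011) from 0.75, 0.55 and 0.85 to 2.68, 2.04 and 3.05. The cysteine protease gene at1g06260 rose by 2.72 (adjusted p = 0.00869), with 3.96, 3.69 and 4.61 against 1.38, 0.83 and 1.88. Both were lower in all leaf arrays than in any bud array, with leaf differences of -0.33 and -0.05. OCT1 (at1g73220), a carnitine transporter, rose by 1.57 (adjusted p = 0.00923) with a leaf difference of 0.02 (95% interval -0.36 to 0.40). Without the 3 arrays the bud differences of these 3 genes and of CES lay between 1.62 and 2.78. Of the 320 probe sets of this class, 80 (25.0%) had every leaf array above every bud array, against 12.7% of all probe sets. In 34 (10.6%) every bud array was above every leaf array, against 18.2%. The part of leaf transcripts in scion bud 1 in these values was not tested.

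Genes of the pollen coat, the lipid and protein layer that the tapetum leaves on the grain, were higher in scion buds. GRP14 (at5g07510), an oleosin-like glycine-rich protein, read 1.92, 1.78 and 2.17 in scion buds against 0.18, 0.18 and 0.01 in rootstock buds, with leaf arrays between -0.89 and -0.01. It rose by 1.83 (adjusted p = 0.00987), and its leaf difference was 0.01 (95% interval -0.44 to 0.47). Of 12 pollen coat genes listed, 11 had a probe set with a name (7 only from the study's tables of changed genes). All 11 were higher in scion buds and 6 rose, against 44.0% and 0.237% of all probe sets. The 6 were GRP14, GRP16, GRP17, GRP20, EXL5 and EXL6, and the list median was 1.57 in buds and -0.05 in leaves. EXL5 and EXL6 encode lipases of the coat.
The list medians were 2.51, 2.12 and 3.20 in scion buds against 1.02, 0.79 and 1.35 in rootstock buds, and no array overlapped. In scion buds the 4 platform-named members were also higher, with a smaller median of 0.52, and 1 of them, EXL5, rose. The GRP and EXL genes lie in tandem clusters of related sequences, and how far a probe set reads its neighbours was not tested.

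The earlier tapetum programme had the opposite sign in buds. Of 25 tapetum and exine genes listed, 17 had a probe set with a name (10 only from the study's tables of changed genes). All 17 were lower in scion buds and all 17 higher in scion leaves, against 12741 and 10872 of all 22746 probe sets. Their medians were -0.88 and 1.60. For the 7 named by the platform annotation the medians were -0.88 and 1.12. TDF1 (at3g28470), a MYB factor of early tapetum development, fell in scion buds by 1.59 (adjusted p = 0.0348), with 0.22, 1.17 and 0.56 against 1.93, 2.42 and 2.37 and a leaf difference of 0.08 (95% interval -0.48 to 0.65). It was the single decrease of the list in buds, and no member passed the test in leaves. Each probe set has 1 spread for both organs, so scatter between leaf arrays also enters the bud test. AHL16, of the same list, differed by -1.41 in buds without overlap (adjusted p = 0.513). Its SD was 1.89 in scion leaves against 0.45 and 0.14 in scion and rootstock buds, while that of TDF1 in scion leaves was 0.26. A bud difference that did not pass therefore does not show that the buds were alike.
AMS (at2g16910), the factor that acts after TDF1, was lower in all scion buds at 2.22, 2.51 and 2.82 against 3.56, 3.42 and 3.20, a difference of -0.88 (adjusted p = 0.121). The leaf side rested on scion leaves 1 and 3, as the list medians were -2.37, -4.37 and -1.37 against -4.63, -4.35 and -4.43 in rootstock leaves. Members such as AHL16 and AMS are among the 50 probe sets that marked scion leaves 1 and 3 as high, so this is partly built in. In buds the medians were 1.37, 2.05 and 1.99 against 2.66, 2.72 and 2.37 without overlap, and the median organ difference of -2.30 shrank to -0.52 without the 3 arrays.

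The abscisic acid (ABA) response, which closes stomata and switches on protective proteins when water is short, had a larger median difference in buds than in leaves. ABI2 (at5g57050), an ABA-induced phosphatase that holds the ABA signal in check, read 1.11, -0.02 and 0.34 in scion buds against -1.82, -1.75 and -1.91 in rootstock buds, with all leaf arrays between -0.46 and 0.29. Rootstock buds alone stood low, and the scion buds overlapped the leaves. ABI2 rose in scion buds by 2.3 ± 0.26 (SE, adjusted p = 0.00987), with a leaf difference of 0.17 (95% interval -0.42 to 0.75).
RAB18 (at5g66400), a dehydrin, rose by 4.32 (adjusted p = 0.0227), at 2.68, -0.28 and 1.70 against -2.93, -2.86 and -3.08, with scion bud 1 highest and scion bud 2 lowest. The phosphatase gene HAI2 (at1g07430) rose by 3.52 (adjusted p = 0.0305) beside 0.86 in leaves. Of 41 ABA genes listed, 22 had a probe set with a name (16 only from the study's tables of changed genes). Among these, 21 were higher in scion buds and 20 in scion leaves, against 44.0% and 47.8% of all probe sets. In buds 4 rose, against 0.237% of all probe sets, and none rose in leaves. The medians in buds and leaves were 2.05 and 0.51. Among the 6 named by the platform annotation 5 were higher in buds and 6 in leaves, with medians of 1.46 and 0.56 and none past the test. The fourth increase was that of LEA7 (at1g52690), a protective protein of late embryo development, which differed by 3.76 in buds and by 2.98 in leaves (adjusted p = 0.124).
The unadjusted p of the organ difference was at most 0.05 in 8 members with a positive organ difference and in 1 with a negative one, COR15B (at2g42530). Over all probe sets these shares were 3.91% and 3.82%. The array medians were 1.38, -0.06 and 0.35 in scion buds against -1.18, -1.19 and -1.76, and 0.86, 1.34 and -0.14 in scion leaves against 0.03, 0.12 and -0.72, where the groups overlapped. The median organ difference of 1.49 moved to 0.25 without the 3 arrays, and the part of leaf transcripts in scion bud 1 was not tested.

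**Figure D4:**
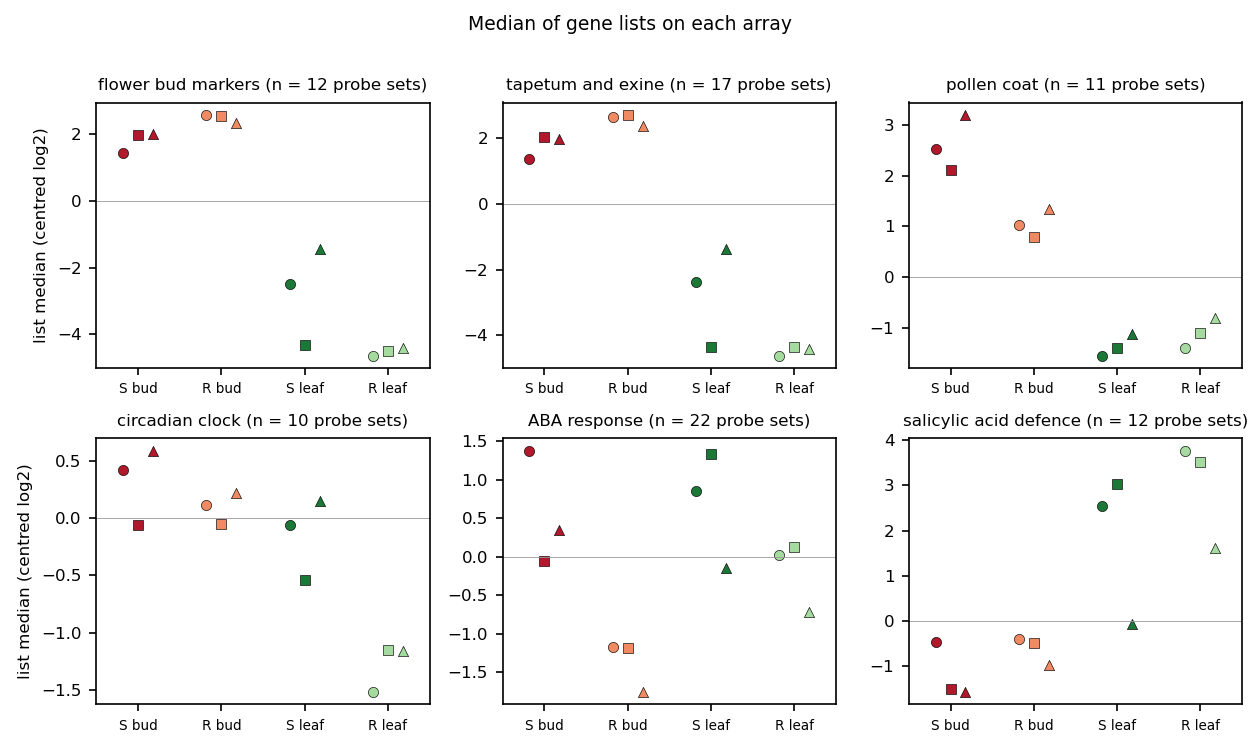
Median centred log2 value (y axis) of 6 gene lists on each of the 12 arrays, grouped as scion (S) and rootstock (R) flower buds and leaves, with replicate 1 as a circle, 2 as a square and 3 as a triangle. Scion leaf replicate 2 lies with the rootstock leaves in the flower bud marker and tapetum lists, the pollen coat list separates scion from rootstock in buds, and the clock list separates them in leaves.

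Plastid-encoded genes, singled out after petL and ndhE had appeared among the named genes, were mostly higher in scion buds. The petL gene, for a small subunit of the cytochrome complex of photosynthesis, read -0.17, -0.39 and -0.63 in scion buds against -1.97, -2.18 and -1.84, and rose by 1.60 (adjusted p = 0.0296) beside a leaf difference of -0.50 (95% interval -1.02 to 0.03), which was -1.1 without the 3 arrays. The ndhE gene, for a subunit of the plastid NADH dehydrogenase-like complex, rose by 1.83 (adjusted p = 0.0138), at -0.75, -0.87 and -0.78 against -2.41, -3.07 and -2.41. Of 69 plastid-encoded probe sets, 62 (89.9%) were higher in scion buds and 24 (34.8%) in scion leaves, against 44.0% and 47.8% of all probe sets, with medians of 0.68 and -0.08, and petL and ndhE were the 2 that rose. The array medians of these 69 were -0.40, -0.43 and -0.45 in scion buds against -1.39, -1.46 and -0.50 in rootstock buds, so that rootstock bud replicate 3 lay close to the scion buds. The 3 nuclear photosynthesis probe sets with a name, of 20 genes listed, differed in buds by a median of 0.27, with none past the test.

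Bud-limited probe sets that were lower in the scion included FTM1 (at1g43800), a stearoyl-ACP desaturase gene that is switched on at the meristem as it turns to flowering. It read -0.21, -0.09 and 0.07 in scion buds against 2.12, 2.15 and 1.58 in rootstock buds, with all leaf arrays between -0.38 and 0.14. Rootstock buds alone stood high, and scion buds lay at the values of the leaves. FTM1 fell in scion buds by 2.03 ± 0.19 (SE, adjusted p = 0.00824), with a leaf difference of 0.04 (95% interval -0.39 to 0.46) and an organ difference of -2.06 ± 0.27 (SE, adjusted p = 0.0812).
SPL10 (at1g27370), a factor of phase change and flowering under control of a microRNA, read 0.49, 0.80 and 0.68 against 1.88, 1.87 and 1.79, and fell by 1.19 (adjusted p = 0.00869). LSH5, a member of a plant family of small nuclear regulators, read 0.29, 0.37 and 0.23 against 1.57, 1.42 and 1.56, and fell by 1.22 (adjusted p = 0.00824). In both genes the scion buds lay between the rootstock buds and the leaves, whose scion and rootstock arrays overlapped.

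The other 5 named members, at3g57970, at1g15320, at3g49830, at2g02061 and the dirigent-like gene at3g13660, fell by 1.21 to 1.35 (adjusted p 0.00987 to 0.0298), with leaf differences between -0.01 and 0.19. Among the other decreases in buds were those of CYP86B1 (at5g23190), a fatty acid hydroxylase of suberin, which fell by 1.19 (adjusted p = 0.0481), and of ERF6 (at4g17490), an ethylene-response factor of stress, which fell by 2.28 (adjusted p = 0.0329) and differed by -1.24 in leaves. In 83 of the 119 probe sets (69.7%) every bud array was above every leaf array, against 18.2% of all probe sets. Without the 3 arrays FTM1, SPL10, LSH5, TDF1 and the other 5 kept a bud-limited difference of -1.96 to -1.11.

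**Figure D5:**
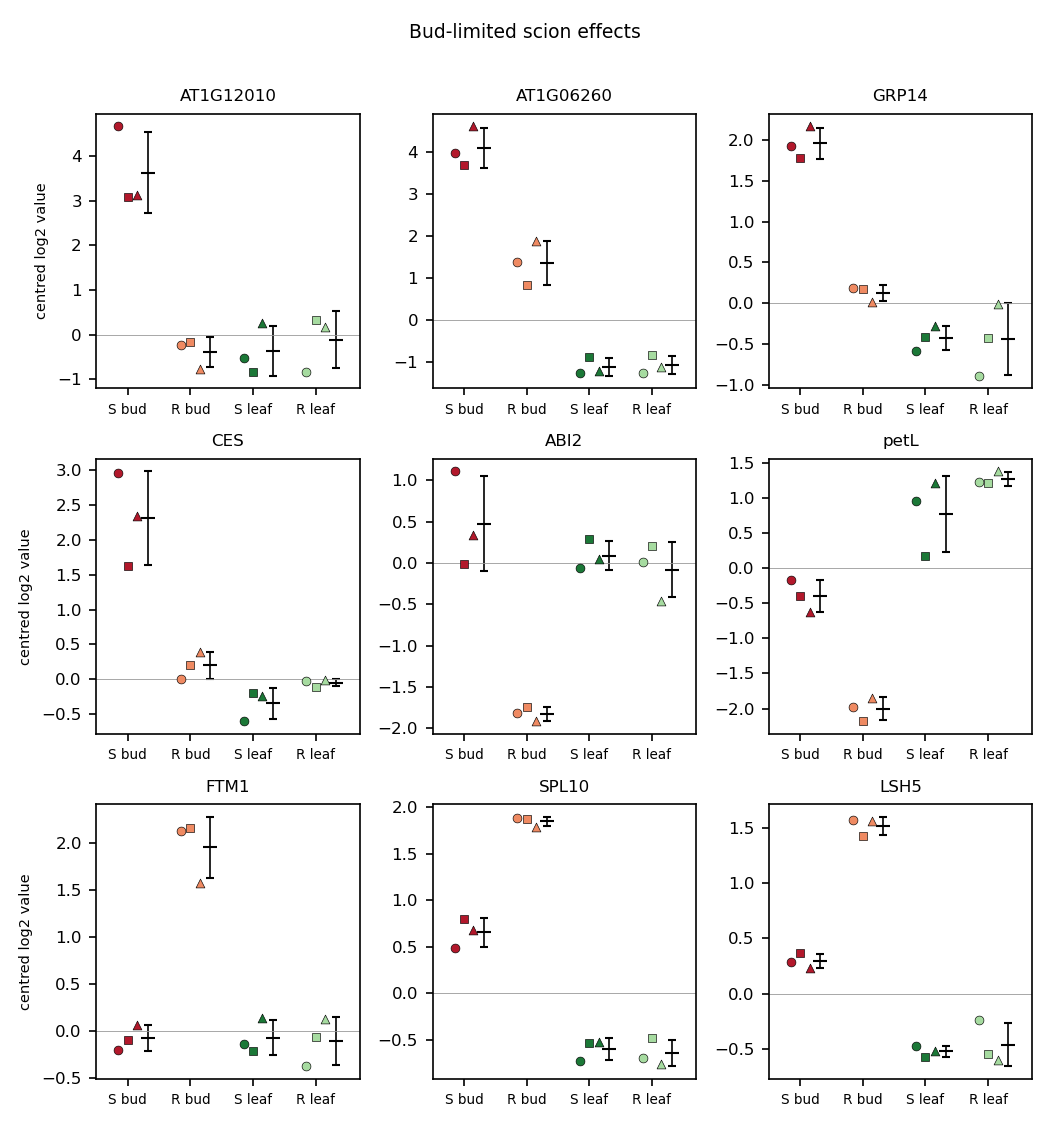
Centred log2 values (y axis) of 9 bud-limited genes on the 12 arrays, grouped as scion (S) and rootstock (R) flower buds and leaves, with replicate 1 as a circle, 2 as a square and 3 as a triangle, and the mean ± SD of the 3 arrays. Scion buds stand above all other arrays in AT1G12010, AT1G06260, GRP14 and CES, and rootstock buds stand above all others in FTM1, SPL10 and LSH5 and below all others in ABI2 and petL.

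Other gene groups gave smaller counts. Of 18 auxin response genes listed, 10 had a probe set with a name (3 only from the study's tables). The unadjusted p of the organ difference was at most 0.05 in 2 of them, IAA19 and IAA7 (at3g23050), against 7.74% of all probe sets. Their median organ difference over the list was 0.14. Of 20 stress ERF and zinc finger genes listed, 11 had a probe set with a name (10 only from the study's tables). Among these, 9 were lower in scion buds and 9 in scion leaves, against 12741 and 11874 of all 22746 probe sets. In buds 1 member, ERF6, fell, against 0.158% of all probe sets. FAR1 (at5g22500), a fatty acyl reductase of suberin, stood outside the classes with -0.54 in buds and 1.85 in leaves, and rose in scion leaves (adjusted p = 0.0441). Its scion leaves (-2.02, -0.93 and -1.70) were all above its rootstock leaves (-3.13, -3.50 and -3.57), and its organ difference was -2.40 ± 0.36 (SE, adjusted p = 0.0812). The 4 reference gene probe sets had a median organ difference of -0.22, with none at an unadjusted p of at most 0.05.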

How the data were processed

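Gene expression was measured on 12 single-colour Affymetrix ATH1 arrays (4 groups of 3 replicates). The authors normalized the intensities with RMA in GeneSpring and deposited log2 values, whose median over the 12 arrays is 0 for every probe set, a step the methods do not state. A level, a background or the depth of signal cannot be read from them, and the number of arrays limits the precision. CEL files were not used.

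The 64 Affymetrix controls stayed out of all tests. Of 22746 others, 13513 had a single gene in the platform annotation, 503 several and 473 a single gene only in the study's tables of changed probe sets, and 8257 stayed unnamed. The genome build behind the annotation was not named, and no coordinates or sequences are given. A single model of 4 group means over all arrays was fitted with limma 3.58.1 (R 4.3.3), so that each probe set has 1 spread for both organs, and p-values were adjusted by Benjamini and Hochberg over all probe sets. For a call within an organ the cut-offs of the methods were used (2-fold, adjusted p no higher than 0.05). The organ difference required the adjusted p only. SE and 95% intervals are from this fit. The fit was also run on simulated data with independent normal noise of 1 size per probe set on all arrays. Those data held no shared deviations of same-numbered arrays and no unequal spread of groups, so the run cannot speak to either. Figures and tables were made with matplotlib 3.10.9 and pandas 2.3.3 in Python 3.11.15.

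The members, gene lists and rules were chosen with earlier results of these data known. Named genes were all opposite probe sets, the 8 with the smallest p of the organ difference for each organ-limited class and direction, 4 such members and 2 others of lowest locus for each list, and MIOX2, AHL16, JMJ30 and the SEP genes. LAP5, JP630, psbC, GRP16, GRP17, LEA7, COR15B and the group of plastid-encoded genes were added after their values were seen. The methods call the replicates independent, and they do not say that equal numbers come from the same plants. Residuals of scion and rootstock arrays of the same number correlated at 0.342 to 0.816 in leaves and at 0.0234 to 0.201 in buds, so the block was kept as an alternative. Each array was left out in turn, and array weights, replicate blocks, array medians, quantile normalization, a robust prior, a plain linear model, the more variable probe sets only, a 1.5-fold threshold and the methods' one-way analysis of variance were tried. The fits without the 3 arrays that stood high for transcripts of the other organ, and without both leaf arrays of replicate 3, were added after the data had been seen. p-values measure the spread between these arrays.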

Additional observations from a re-analysis of the deposited data

Results flagged for a closer look

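In 2 genes every scion array lay on one side of all rootstock arrays in buds and on the opposite side in leaves. The group means of these genes differed at least 2-fold in both organs. MIOX2 was lower in all scion buds and higher in all scion leaves, with an organ difference of -3.30 on the log2 scale. The gene at5g44400 was higher in all scion buds and lower in all scion leaves, with an organ difference of 4.65. The limma test of the difference gave both an adjusted p of 0.0812, and the adjusted p ran from 0.000444 to 0.291 for MIOX2 and from 0.00297 to 0.291 for at5g44400 over the other settings. The sign held in all of these settings.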

How the results depend on the processing

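The organ difference was called for 0 probe sets in the fit as reported, for 0 to 34 when 1 array was left out, for 467 with array weights, 4 with array weights by organ, 4 with quantile normalization within the organ, 37 without the 3 arrays with transcripts of the other organ and 10 without both leaf arrays of replicate 3. Opposite probe sets numbered 9 (5 to 44 when 1 array was left out), 15 with array weights, 20 without the 3 arrays and 137 at a 1.5-fold threshold. Bud-limited ones numbered 439 (281 to 734), 205 without the 3 arrays and 1305 at 1.5-fold, and leaf-limited ones 95 (91 to 348), 1302 without the 3 arrays, where a lone scion leaf array makes non-overlap easier to meet, 342 without both leaf arrays of replicate 3 and 341 at 1.5-fold.

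The 90 bud calls (0 to 286 when 1 array was left out) became 639 with array weights, 380 with weights by organ, 170 without both leaf arrays of replicate 3, 52 with quantile normalization, 21 without the 3 arrays and 10 with a plain linear model. The 12 leaf calls (7 to 55) became 226, 6, 51, 175 without the 3 arrays and 4 with a plain linear model. Arrays of the same number deviated together in leaves (r 0.342 to 0.816) and less so in buds (0.0234 to 0.201), and the methods do not say that equal numbers mark the same plants. A replicate block over all arrays left the organ difference at 0 calls, and a replicate block within the organ gave 111, with 466 bud and 108 leaf calls.

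Median organ differences when 1 array was left out ran from 0.91 to 2.02 for the ABA list, -1.35 to -0.85 for the clock, -1.55 to -1.29 for floral identity, 1.39 to 1.91 for the pollen coat, -0.37 to 1.14 for salicylic acid defence and -3.22 to -1.69 for the tapetum. Without the 3 arrays they were 0.25, -0.37, -1.03, 1.77, -0.84 and -0.52. The clock median was -0.90 without both leaf arrays of replicate 3 and the floral median -0.72 with quantile normalization. Without the 3 arrays, where scion leaf 2 is the lone scion leaf, the organ difference reversed in ELF4 (0.41), HIR2 (-0.61), LURP1 (-0.91), MLP423 (1.17), PCC1 (-0.081) and LEA7 (-0.82). It reversed in no other of the 92 genes recomputed, under these settings. Where a cause is not given, the cause was not tested.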
